A study of Neurospora crassa with 12 samples.

Results

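Of the 8949 genes measured in both kinds of mRNA-seq of this study of *Neurospora crassa*, a filamentous fungus, 207 were lower in the *adat2*-silenced strain than in WT by more than 2-fold in both kinds. They were chosen by the measured levels themselves: the ratio of mean FPKM (reads per kilobase of transcript, scaled by the reads of the library) Si*adat2*/WT had to be below 0.5 in each kind, both Si*adat2* libraries had to lie below both WT libraries in each kind, and the WT mean had to be at least 5 FPKM in each kind. Of the 8949 genes, 5618 met the last condition, and the 207 genes are 3.68% of them. Every strain difference given for these genes is therefore a description of what selected them, and no test of it was made.

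*adat2* (NCU01888) codes for the predicted catalytic part of the enzyme that converts adenosine to inosine at the wobble position of the tRNA anticodon. WT is strain 87-3 (*bd*, *a*). Si*adat2* was made from strain 301-6 (*bd*, *A*, *his-3*) with an inverted repeat of *adat2* targeted to *his-3* and switched on by quinic acid (QA). Both strains were grown as mycelia in 0.1% glucose with 0.01 M QA, for 3 days in plates and then for 1 day with shaking under constant light, so the WT cultures received the inducer too. The accompanying mRNA-seq was made beside ribosome profiling from cultures given cycloheximide (CHX, 50 µg/ml) for 10 min, and the independent mRNA-seq from cultures without CHX. Each strain has 2 libraries in each kind. The values of the replicates are given below in the order 1, 2. Strain background, mating type, the construct and the silencing differ together between the strains and cannot be told apart.

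*N. crassa* lives on burnt plant matter. It secretes xylanases and cellulases that break plant cell walls into sugars, takes the sugars up, and turns xylose into a compound of the pentose phosphate pathway through xylitol and xylulose. Many of these genes are held low while glucose is plentiful and are switched on when it runs out and a plant sugar is present. Sugars then run through glycolysis, and part of the carbon can leave as ethanol or acetate.

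The accompanying libraries held 961703 and 2361460 reads in coding sequences for WT and 1547105 and 2777576 for Si*adat2*, and the depth of the independent libraries is unknown. A gene of the 207 had a median of 90 and 228 reads in the WT libraries and of 38 and 79 reads in the Si*adat2* libraries. The reads of *adat2* itself (8 and 25 in WT, 16 and 90 in Si*adat2*) do not check the labels, because the construct carries a segment of the gene, and the independent tables list it at 0 in all 4 libraries. The label of mycelia was checked with 5 genes of conidiation, the making of asexual spores. Genes of this kind did not all move 1 way. On a list of 15 conidiation and cell surface genes, 4 were higher by more than 2-fold in both kinds. In the accompanying mRNA-seq 5 of the 15 were lower by more than 2-fold. The summed level of *con-6*, *con-8*, *con-10* and *con-13* was 2315 and 2261 FPKM in WT and 4346 and 5795 FPKM in Si*adat2* in the independent mRNA-seq, and 1851 and 1906 FPKM in WT and 28387 and 28215 FPKM in Si*adat2* in the accompanying mRNA-seq. The spore hydrophobin gene *eas* took 0.122% and 0.127% of the WT reads and 6.95% and 5.29% of the Si*adat2* reads in the accompanying mRNA-seq. In the independent mRNA-seq it had 7859 and 7608 FPKM in WT and no value in the Si*adat2* tables used here. Each of the 4 *con* genes was higher in both Si*adat2* libraries than in both WT libraries of each kind, with *con-13* at 0 and 2.98 FPKM in WT in the accompanying mRNA-seq, and their part in the lower levels described below was not tested. In these bulk samples, fewer cells of a type and less RNA per cell cannot be told apart.

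Over the 5618 genes, the lower genes by the same rule numbered 697 (12.4%) in the independent mRNA-seq and 652 (11.6%) in the accompanying mRNA-seq. The 207 genes are 29.7% of the first list and 31.7% of the second. Of the 697 genes, 32 were higher by more than 2-fold without overlap in the accompanying mRNA-seq, and of the 652 genes, 53 were higher in the independent mRNA-seq. By the mirrored rule, 156 genes (2.78%) were higher in both kinds. The 2 kinds share no library, but they come from the same strains.

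**Figure D1:**
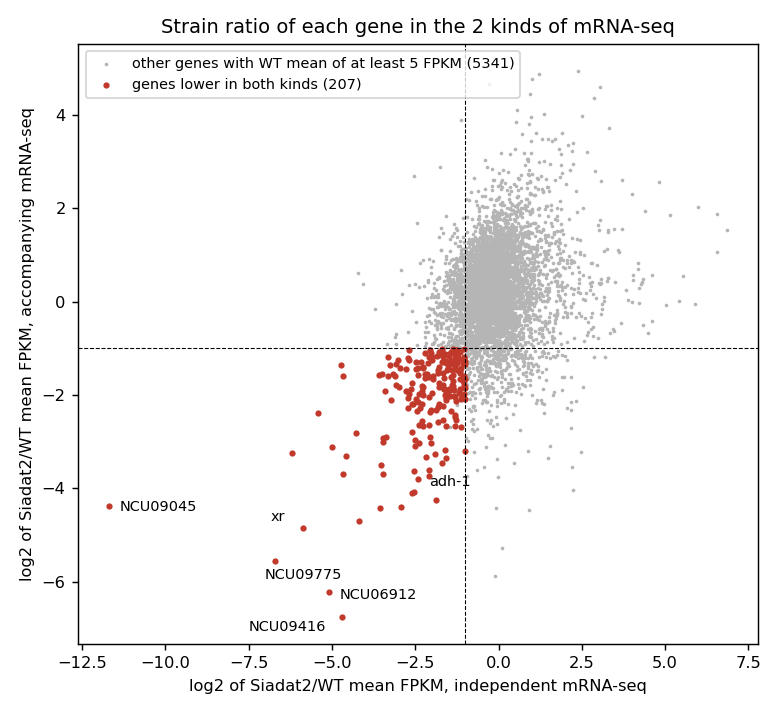
Each point is a gene with a WT mean of at least 5 FPKM in both kinds, at the log2 of its ratio of mean FPKM Si*adat2*/WT in the independent (x) and accompanying (y) mRNA-seq; 70 genes with a mean of 0 in Si*adat2* in a kind are not drawn. The 207 genes (red) fill the corner below the dashed lines at a ratio of 0.5, by selection, and reach down to NCU09045, NCU09416, NCU06912 and *xr*.

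The median log2 ratio of the 207 genes was -1.82 in the independent mRNA-seq (from -11.69 to -1.01) and -1.79 in the accompanying mRNA-seq (from -6.75 to -1.02). The medians over the 5618 genes were -0.20 and 0.28, so a ratio of 0.5 is farther from the middle of all genes in the accompanying kind. The cause of the distance between these medians was not tested. In the independent mRNA-seq 95 of the 207 genes were lower by more than 4-fold and 25 by more than 10-fold. In the accompanying mRNA-seq these numbers were 78 and 21. In both kinds, 49 genes were lower by more than 4-fold and 10 by more than 10-fold. The lowest WT library was at least 2 times the highest Si*adat2* library in both kinds for 141 of the 207 genes. The 207 genes together took 6.40% and 6.35% of the accompanying reads in WT and 1.68% and 1.74% in Si*adat2*.

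Of the 207 genes, 30 have a symbol of their own in the gene table, and a product other than hypothetical protein is known here for 45. The other 142 have neither. The annotated genes were put into groups by role after their values were seen. The largest groups were those of plant cell wall breakdown with 12 genes, of pentose and galactose use with 11 genes, of glycolysis and the routes that branch from it with 10 genes, and of oxidoreductases with no assigned route, also with 10.

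The endoxylanase genes *gh11-2*, *gh10-2* and *gh10-1*, whose enzymes cut the xylan backbone, were among the genes with the largest folds. *gh11-2* (NCU07225, chromosome V from 6198659 to 6199980 of assembly NC12) had 347 and 337 FPKM in WT and 15.0 and 13.5 FPKM in Si*adat2* in the independent mRNA-seq. With CHX it had 56.2 and 61.3 FPKM in WT and 5.73 and 6.11 FPKM in Si*adat2*. It was 24-fold lower in the first kind and 9.93-fold lower in the second, and the replicates of a strain lay close together in each. *gh10-2* (NCU08189) went from 185 and 182 FPKM in WT to 5.98 and 5.59 FPKM in Si*adat2* in the independent mRNA-seq, and from 114 and 128 FPKM to 14.2 and 13.9 FPKM in the accompanying mRNA-seq. *gh10-1* (NCU05924) had 76.1 and 78.6 FPKM in WT and 2.18 and 1.46 FPKM in Si*adat2* in the independent mRNA-seq, where it was 42.5-fold lower. In the accompanying mRNA-seq it had 18.1 and 18.4 FPKM in WT and 2.61 and 4.39 FPKM in Si*adat2*, a 5.22-fold difference. The fold of all 3 genes was larger without CHX than with it. NCU02343, by its Gene Ontology term an alpha-L-arabinofuranosidase, which trims arabinose side chains, had 324 and 321 FPKM in WT and 40.9 and 35.4 FPKM in Si*adat2* in the independent mRNA-seq. Its accompanying levels were 144 and 166 FPKM in WT and 39.8 and 49.7 FPKM in Si*adat2*.

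In the independent mRNA-seq the genes for cellulose breakdown were lower by smaller folds than the xylanase genes. *cbh-1* (NCU07340), the gene of a cellobiohydrolase, which releases cellobiose from the ends of cellulose chains, had 83.5 and 83.0 FPKM in WT and 13.3 and 12 FPKM in Si*adat2* in the independent mRNA-seq. It had 50.0 and 41.7 FPKM in WT and 11.6 and 10.2 FPKM in Si*adat2* in the accompanying mRNA-seq. Family 61, which holds lytic polysaccharide monooxygenases that cut cellulose by oxidation, had 3 genes among the 207. *gh61-5* had 67.3 and 62.3 FPKM in WT and 7.37 and 6.27 FPKM in Si*adat2* in the independent mRNA-seq. Of the other two, *gh61-1* was 6.88-fold and 3.76-fold lower in the independent and accompanying kinds and *gh61-7* 4.05-fold and 8.19-fold. *gh7-1*, of the family of *cbh-1*, and *gh3-1* and *gh1-1*, of families with beta-glucosidases, were low in WT already, with WT means of 8.40 to 13.95 FPKM in the independent mRNA-seq. The regulator *clr-2* (NCU08042), a transcription factor needed for cellulase expression, had 14.9 and 12.3 FPKM in WT and 3.01 and 2.51 FPKM in Si*adat2* in the independent mRNA-seq. With CHX it had 8.18 and 6.74 FPKM in WT and 1.41 and 1.85 FPKM in Si*adat2*.

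**Figure D2:**
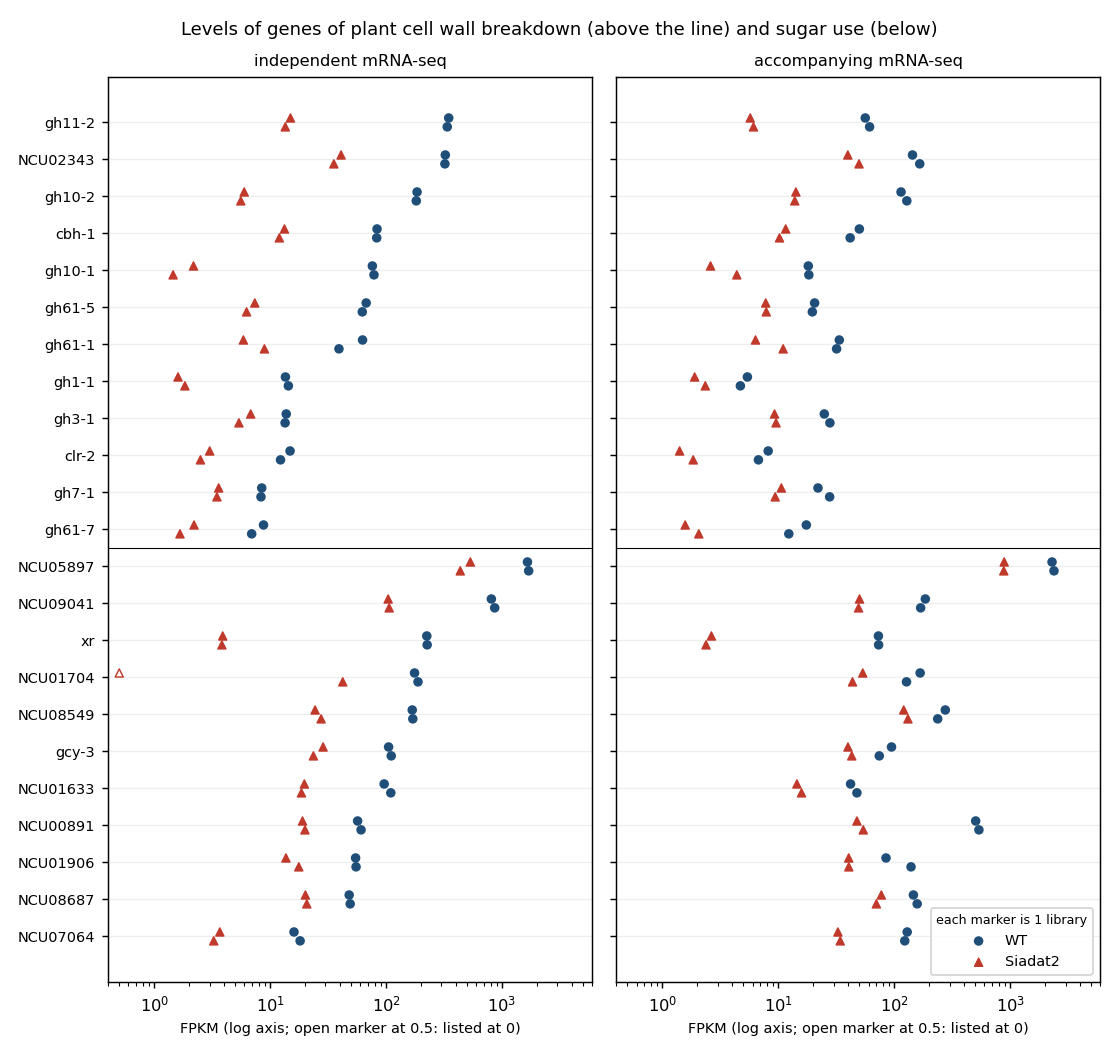
FPKM (log axis) of 12 genes of plant cell wall breakdown (above the line) and 11 of sugar use and uptake (below) in the independent (left) and accompanying (right) mRNA-seq; each marker is 1 library, a circle for WT and a triangle for Si*adat2*, and the open triangle marks the library in which NCU01704 is listed at 0. The widest gaps are those of *xr*, *gh10-1*, *gh10-2* and *gh11-2* on the left.

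Over the 12 genes the median fold was 7.49 in the independent mRNA-seq and 3.98 in the accompanying mRNA-seq, and 9 of the 12 were lower by more in the independent mRNA-seq (75%, beside 67.9% of all genes). After scaling by the median gene 8 of the 12 were (66.7%, beside 54.9%). Symbols that begin with gh, for glycoside hydrolase, are carried by 44 of the 5618 genes. Of these 44 genes, 9 are among the 207 (20.5%, beside 3.68% of all genes) and none among the genes higher in both kinds. Ratios over 1 in both kinds were found for 5 of the 44. In the independent mRNA-seq 23 of the 44 met the rule (52.3%, beside 12.4% over all genes), and in the accompanying mRNA-seq 13 did (29.5%, beside 11.6%). The gh genes were taken as a family after their values were seen. A list of glycoside hydrolases and secreted carbohydrate enzymes by product held 13 of the 5618 genes and none of the 207. The gh genes of the 207 have no product here, so this list could not hold them.

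Genes for the use of pentoses stood beside the xylanases. *xr* (NCU08384, chromosome I from 5518643 to 5521403), the gene of xylose reductase, which makes xylitol from xylose, had 224 and 226 FPKM in WT and 3.90 and 3.84 FPKM in Si*adat2* in the independent mRNA-seq. In the accompanying mRNA-seq it had 73.0 and 73.3 FPKM in WT and 2.65 and 2.38 FPKM in Si*adat2*. These are 58.2-fold and 29.1-fold differences, the latter from 299 reads in WT and 13 reads in Si*adat2*. The replicates of each strain were nearly equal in both kinds. NCU00891, annotated as xylitol dehydrogenase, the next enzyme of the route, had 56.8 and 60.8 FPKM in WT and 19.02 and 19.96 FPKM in Si*adat2* in the independent mRNA-seq. Its difference was larger in the accompanying mRNA-seq, with 504 and 537 FPKM in WT and 47.7 and 54.1 FPKM in Si*adat2*. *xyk-1*, the gene of the xylulokinase that completes the route, stayed just outside the rule with ratios of 0.503 and 0.386.

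NCU09041, annotated as L-xylulose reductase, an enzyme of the route from L-arabinose, had 809 and 864 FPKM in WT and 104 and 106 FPKM in Si*adat2* in the independent mRNA-seq. Its accompanying levels were 185 and 169 FPKM in WT and 50.2 and 49.2 FPKM in Si*adat2*. NCU01704, annotated as an NADP-dependent D-xylose dehydrogenase, had 176 and 188 FPKM in WT and was listed at 0 and 42.3 FPKM in Si*adat2* in the independent mRNA-seq. With CHX it had 167 and 128 FPKM in WT and 53.5 and 43.7 FPKM in Si*adat2*, so the 0 has no counterpart there. NCU07064, annotated as L-galactonate dehydratase, an enzyme of galacturonate breakdown, was 4.92-fold lower in the independent and 3.77-fold lower in the accompanying mRNA-seq. The aldose reductase genes *gcy-3* and NCU01906 (annotated as GCY protein) were 4.13-fold and 3.50-fold lower in the independent mRNA-seq. In the accompanying mRNA-seq *gcy-3* was 2.04-fold lower, and its ratio of 0.491 rose above 0.5 with replicate 1 of either strain left out.

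Galactokinase (NCU08687) and UDP-galactose 4-epimerase (NCU08549), enzymes that bring galactose into glycolysis, were on the list as well. The epimerase gene had 168 and 170 FPKM in WT and 24.4 and 27.5 FPKM in Si*adat2* in the independent mRNA-seq, and 276 and 237 FPKM in WT and 121 and 131 FPKM in Si*adat2* in the accompanying mRNA-seq. Its accompanying ratio of 0.492 was close to the limit. The accompanying ratio of the galactokinase gene rose above 0.5 with replicate 2 of either strain left out. Among the sugar carriers, NCU05897, annotated as an L-fucose permease, was the second most abundant of the 207 genes in the independent mRNA-seq. It had 1656 and 1696 FPKM in WT and 533 and 436 FPKM in Si*adat2* there, and 2294 and 2385 FPKM in WT and 887 and 880 FPKM in Si*adat2* in the accompanying mRNA-seq. NCU01633, annotated as hexose transporter HXT13, was 5.37-fold lower in the independent and 2.96-fold lower in the accompanying mRNA-seq. A list of transporters and permeases by product held 14 of the 5618 genes, with these 2 among the 207 (14.3%, beside 3.68% of all genes). Another 2 of the 14 were higher in both kinds. Of the 11 genes of sugar use and uptake, 10 were lower by more in the independent mRNA-seq, and 6 after scaling by the median gene (54.5%, beside 54.9% of all genes).

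The most abundant of the 207 genes was *adh-1* (NCU01754, chromosome II from 2539541 to 2541938), the gene of alcohol dehydrogenase I, which makes ethanol from acetaldehyde. It had 2542 and 2696 FPKM in WT and 556 and 432 FPKM in Si*adat2* in the independent mRNA-seq. In the accompanying mRNA-seq it had 3912 and 3574 FPKM in WT and 259 and 280 FPKM in Si*adat2*. The strains were 5.30-fold apart without CHX and 13.9-fold apart with CHX. The glycolytic genes *gpi-1*, *pgk* and *emp-6* were on the list. *gpi-1*, for glucose-6-phosphate isomerase, had 447 and 458 FPKM in WT and 167 and 141 FPKM in Si*adat2* in the independent mRNA-seq. *pgk* (NCU07914), for phosphoglycerate kinase, which makes ATP from 1,3-bisphosphoglycerate, had 552 and 578 FPKM in WT and 208 and 171 FPKM in Si*adat2* in the independent mRNA-seq. With CHX *pgk* had 936 and 962 FPKM in WT and 151 and 150 FPKM in Si*adat2*, a 6.31-fold difference. *emp-6*, for phosphoglycerate mutase, was 2.96-fold and 4.19-fold lower in the independent and accompanying kinds. A list of glycolytic and fermentation enzymes by product, whose terms do not take in *gpi-1*, held 20 of the 5618 genes. Of these 20, 3 were among the 207 (15%, beside 3.68% of all genes), 7 were lower in the independent mRNA-seq (35%, beside 12.4%) and 6 in the accompanying mRNA-seq (30%, beside 11.6%). Higher in both kinds was 1 of the 20.

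Genes of acetate and of the pentose phosphate pathway were 2.14-fold to 4.11-fold lower. NCU06123 and NCU02712 are annotated as phosphoketolase, which splits a pentose phosphate and releases acetyl phosphate, and acetate kinase, which turns acetyl phosphate into acetate and ATP. The phosphoketolase gene had 164 and 164 FPKM in WT and 84.6 and 68.6 FPKM in Si*adat2* in the independent mRNA-seq, and 171 and 174 FPKM in WT and 38.8 and 45.3 FPKM in Si*adat2* in the accompanying mRNA-seq. The acetate kinase gene had 92.4 and 97.2 FPKM in WT and 36.4 and 33.0 FPKM in Si*adat2* in the independent mRNA-seq, and 185 and 170 FPKM in WT and 40.4 and 46.7 FPKM in Si*adat2* in the accompanying mRNA-seq. Both were lower by more in the accompanying mRNA-seq (4.11-fold and 4.07-fold) than in the independent mRNA-seq (2.14-fold and 2.73-fold). NCU03415, annotated as an aldehyde dehydrogenase, had 955 and 1026 FPKM in WT and 375 and 327 FPKM in Si*adat2* in the independent mRNA-seq. NCU08771 was counted in the group of glycolysis and its branches too. It is annotated as acetolactate synthase, an enzyme of branched-chain amino acid synthesis that starts from pyruvate. It had 1205 and 1241 FPKM in WT and 291 and 289 FPKM in Si*adat2* in the independent mRNA-seq. It was 4.21-fold lower there and 3.07-fold lower in the accompanying mRNA-seq. NCU11370 (6-phosphogluconate dehydrogenase 2) and *tca-14*, for fumarate hydratase of the citrate cycle, complete the group. *tca-14* is 1 of 15 *tca* genes among the 5618, of which 10 were lower in the accompanying mRNA-seq (66.7%, beside 11.6% of all genes) and 1 in the independent mRNA-seq (6.67%, beside 12.4%). Of the 10 genes of glycolysis and its branches, 8 were lower by more in the accompanying mRNA-seq. The other 2 were so in the independent mRNA-seq (20%, beside 67.9% of all genes). When each library was scaled by its median gene, 9 were lower by more in the accompanying mRNA-seq. The remaining 1 was so in the independent mRNA-seq (10%, beside 54.9% of all genes and 33.8% of the 207).

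**Figure D3:**
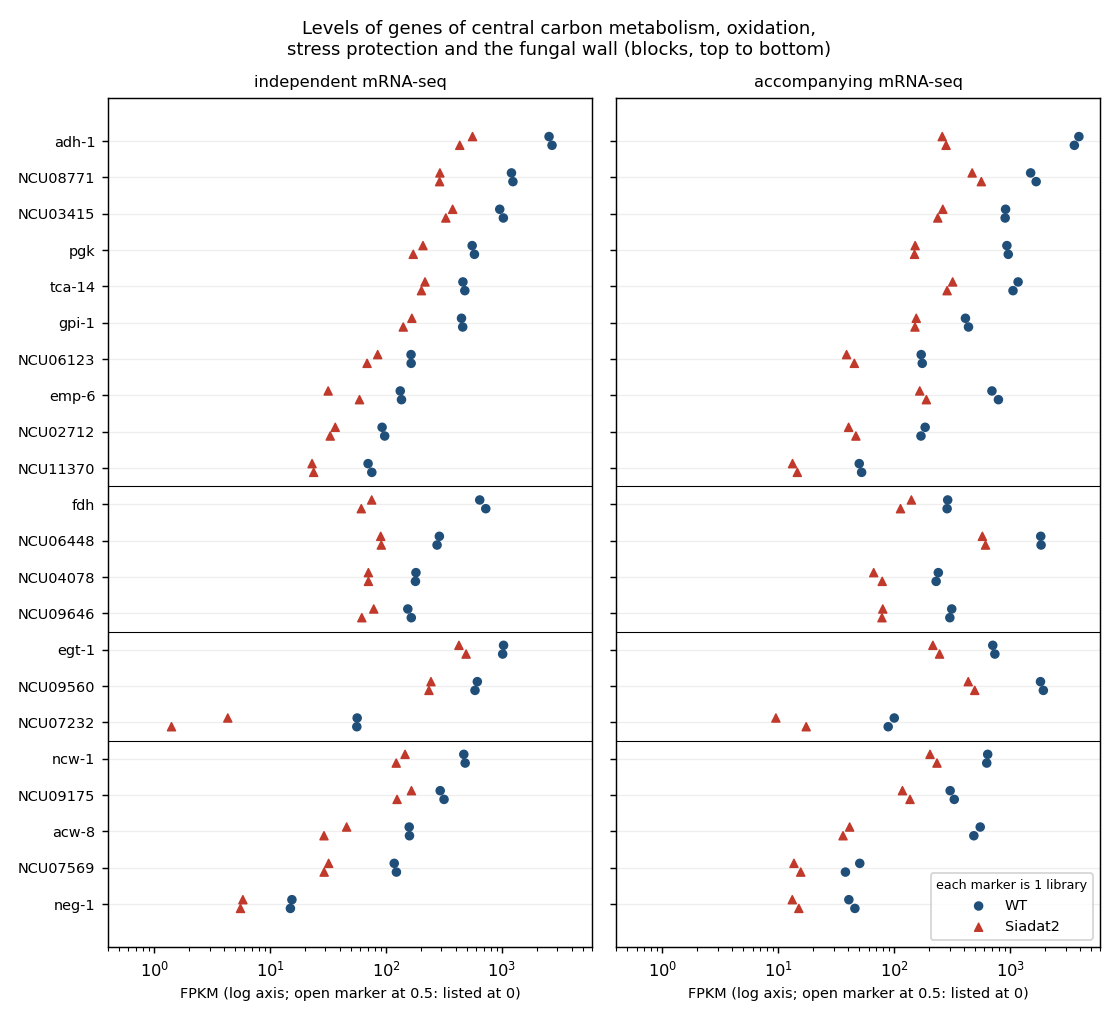
FPKM (log axis) of genes of glycolysis and its branches (top block), fatty acid and one-carbon oxidation, stress protection and the fungal cell wall (bottom block) in the independent (left) and accompanying (right) mRNA-seq; each marker is 1 library, a circle for WT and a triangle for Si*adat2*. The gap of *adh-1* is wider on the right (13.9-fold) and that of *fdh* wider on the left (10.03-fold).

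Fatty acid oxidation had NCU06448 (enoyl-CoA hydratase) and NCU09646 (3-ketoacyl-CoA thiolase) on the list, of 17 genes with such a product (11.8%, beside 3.68% of all genes). Of the 17, 2 were lower in the independent mRNA-seq (11.8%, beside 12.4%) and 6 in the accompanying mRNA-seq (35.3%, beside 11.6%). The hydratase gene had 288 and 275 FPKM in WT and 89.9 and 90.9 FPKM in Si*adat2* in the independent mRNA-seq, and 1833 and 1846 FPKM in WT and 575 and 612 FPKM in Si*adat2* in the accompanying mRNA-seq. *fdh* (NCU03813), for formate dehydrogenase, which oxidises formate to CO2, had 642 and 724 FPKM in WT and 75.1 and 61.1 FPKM in Si*adat2* in the independent mRNA-seq. With CHX it had 289 and 286 FPKM in WT and 141 and 113 FPKM in Si*adat2*. Its fold was 10.03 in the first kind and 2.26 in the second. A gene annotated as NAD-dependent methanol dehydrogenase (NCU04078) was 2.56-fold and 3.23-fold lower.

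Of the lists by product, oxidoreductases held the most of the 207 genes, with 19 of the 157 among the 5618 genes (12.1%, beside 3.68% of all genes). Xylose reductase, alcohol dehydrogenase I and formate dehydrogenase are counted in it. Of those with no assigned route, NCU01861, of the short chain dehydrogenase family, had 745 and 730 FPKM in WT and 30.5 and 25.3 FPKM in Si*adat2* in the independent mRNA-seq. With CHX its levels were 60.6 and 78.4 FPKM in WT and 26.6 and 27.7 FPKM in Si*adat2*, so the strains differed 26.5-fold in one kind and 2.55-fold in the other. The FAD monooxygenase gene NCU05188 had 85.9 and 83.7 FPKM in WT and 15.5 and 13.6 FPKM in Si*adat2* in the independent mRNA-seq, and was 12.4-fold lower in the accompanying mRNA-seq. The salicylate hydroxylase gene NCU07737 was 5.67-fold and 7.78-fold lower.

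Among the 207 were 3 genes of stress protection. *egt-1* (NCU04343), for the first enzyme of ergothioneine synthesis, an antioxidant of fungi, had 1030 and 1012 FPKM in WT and 425 and 490 FPKM in Si*adat2* in the independent mRNA-seq. A superoxide dismutase gene (NCU09560), whose enzyme removes superoxide, had 612 and 584 FPKM in WT and 244 and 234 FPKM in Si*adat2* in the independent mRNA-seq, and 1824 and 1931 FPKM in WT and 435 and 494 FPKM in Si*adat2* in the accompanying mRNA-seq. Heat shock protein 30 (NCU07232), a small chaperone, had 56.3 and 55.9 FPKM in WT and 4.31 and 1.41 FPKM in Si*adat2* in the independent mRNA-seq. In the accompanying mRNA-seq it had 100.03 and 88.7 FPKM in WT and 9.54 and 17.4 FPKM in Si*adat2*. The Si*adat2* replicates of this gene were apart, but below WT in both kinds. The list of heat shock proteins and chaperones by product held 25 of the 5618 genes, and 1 of them among the 207 (4%) is close to the 3.68% of all genes. A list of catalases, peroxidases and superoxide dismutases by product held 9, with NCU09560 alone among the 207 (11.1%). The median log2 ratio of these 9 genes was 0.18 in the independent and -0.65 in the accompanying mRNA-seq.

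Of the proteins of the fungus's own wall, *ncw-1* (non-anchored cell wall protein-1) had 468 and 481 FPKM in WT and 146 and 122 FPKM in Si*adat2* in the independent mRNA-seq. *acw-8*, of the anchored cell wall proteins, had 158 and 159 FPKM in WT and 45.7 and 29.1 FPKM in Si*adat2* there, and 551 and 486 FPKM in WT and 41.2 and 36.2 FPKM in Si*adat2* in the accompanying mRNA-seq. Of the 11 *acw* genes among the 5618, *acw-8* is the only one of the 207, 2 were higher in both kinds and 5 had ratios over 1 in both. *neg-1*, for a glucanase that cuts beta-1,6-glucan, was 2.67-fold and 3.06-fold lower. The clock-controlled gene *ccg-13* had 311 and 322 FPKM in WT and 60.1 and 87.3 FPKM in Si*adat2* in the independent mRNA-seq, and 101 and 101 FPKM in WT and 9.10 and 7.49 FPKM in Si*adat2* in the accompanying mRNA-seq. It was the only gene of the 207 among the 15 on the list of conidiation and cell surface genes (6.67%, beside 3.68% of all genes). Of these 15 genes, 4 were higher in both kinds. Lower were 2 in the independent mRNA-seq (13.3%, beside 12.4%) and 5 in the accompanying mRNA-seq (33.3%, beside 11.6%). The 207 genes held none of the lists of light and clock, the quinic acid cluster, the respiratory chain, ribosomal proteins, aminoacyl-tRNA synthetases, glycogen and trehalose, nitrogen assimilation, mating type and pheromone, or transcription regulators by product. These lists hold between 2 and 80 of the 5618 genes, and with 3.68% of all genes on the list of 207, nothing is read from a count of 0 in lists of this size.

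The rest of the genes with a symbol have diverse roles. *mtr*, for the permease of neutral amino acids, *erg-3*, for sterol C-14 reductase of ergosterol synthesis, and *cax*, for a calcium exchanger of the vacuole, were 2.02-fold, 3.22-fold and 4.85-fold lower in the independent mRNA-seq. The accompanying ratio of *erg-3* was 0.494, and it rose above 0.5 with WT replicate 2 or Si*adat2* replicate 1 left out. *asd-1*, needed for ascus development, had 30.5 and 30.5 FPKM in WT and 2.85 and 2.65 FPKM in Si*adat2* in the independent mRNA-seq, and 11.8 and 12.4 FPKM in WT and 0.340 and 2.67 FPKM in Si*adat2* in the accompanying mRNA-seq. *nst-6*, for a sirtuin, a deacetylase that uses NAD, had 4.97 and 6.05 FPKM in WT and 1.88 and 0.711 FPKM in Si*adat2* in the independent mRNA-seq, where it was near the limit of 5 FPKM. *lyz* was 4.28-fold and 4.10-fold lower.

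Of the 10 genes with the smallest ratios, *xr* has a product here, *gh10-2* has a symbol and the other 8 have neither. NCU06912 (chromosome VII from 747459 to 749114) had 80.9 and 80.1 FPKM in WT and 2.16 and 2.59 FPKM in Si*adat2* in the independent mRNA-seq. With CHX it had 104 and 103 FPKM in WT and 1.499 and 1.263 FPKM in Si*adat2*, from 298 and 5 reads. The ratio of its read shares was 0.0129 with an exact 95% interval from 0.00416 to 0.0304. Such an interval pools the libraries of a strain and covers counting error only. It does not allow for the choice of the gene by its small ratio in these same reads. NCU09775 had 75.3 and 72.5 FPKM in WT and 1.42 FPKM and a listed 0 in Si*adat2* in the independent mRNA-seq, and 95.8 and 78.3 FPKM in WT and 2.02 and 1.70 FPKM in Si*adat2* in the accompanying mRNA-seq. NCU09416 had 8.35 and 8.35 FPKM in WT and 0.298 and 0.346 FPKM in Si*adat2* in the independent mRNA-seq. With CHX it had 141 reads in the WT libraries and 2 reads in the Si*adat2* libraries, which gives a ratio of 0.0109 with an interval from 0.00131 to 0.0401. NCU09045, whose product holds a heterokaryon incompatibility domain by its InterPro entry, had 18.8 and 18.0 FPKM in WT and a listed 0 and 0.0112 FPKM in Si*adat2* in the independent mRNA-seq. Its accompanying reads were 176 in WT and 11 in Si*adat2*, so a low level was measured there. NCU05914 and NCU07053 were at most at 2.18 FPKM in every Si*adat2* library. More abundant genes among them were NCU09491, with 228 and 227 FPKM in WT and 8.89 and 8.79 FPKM in Si*adat2* in the independent mRNA-seq, and NCU09170, with 584 and 546 FPKM in WT and 48.0 and 47.9 FPKM in Si*adat2*. NCU09698, also without a product and among the 10 most abundant, had 595 and 588 FPKM in WT and 105 and 92.7 FPKM in Si*adat2*.

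An exact 0 in an independent Si*adat2* library was listed for 13 of the 207 genes. By the deposited status, no estimate of the 207 genes in an independent library was marked FAIL, and 17 genes had the status LOWDATA. Such a 0 may still not be a measured absence, which was not tested. For some the other library was far from 0. NCU10040 had 476 and 512 FPKM in WT and 369 FPKM and a listed 0 in Si*adat2*, and NCU05119 had 37.5 and 38.2 FPKM in WT and a listed 0 and 36.9 FPKM in Si*adat2*. NCU05290, annotated as orotate phosphoribosyltransferase, had 58.7 and 25.7 FPKM in WT and 21.6 FPKM and a listed 0 in Si*adat2*. With NCU05953, these genes are the 4 of the 13 whose other Si*adat2* library alone would give a ratio of 0.5 or more. Their accompanying levels had no such split: NCU05119 had 109 and 104 FPKM in WT and 31.5 and 30.3 FPKM in Si*adat2* there. Without the 13 genes, 194 remain. With the higher Si*adat2* library of each kind in place of the mean, 163 of the 207 genes had ratios below 0.5 in both kinds.

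The members nearest to the limit were NCU04665, NCU03388 and *mtr*, whose larger ratios were 0.498, 0.497 and 0.496. The genes just outside it were NCU06386, *xyk-1* and *gh3-4*, a further gene of a beta-glucosidase family, with 0.502, 0.503 and 0.504. *gh3-4* had 93.0 and 92.5 FPKM in WT and 20.9 and 22.6 FPKM in Si*adat2* in the independent mRNA-seq, and missed the rule in the accompanying mRNA-seq with 32.6 and 30.6 FPKM in WT and 15.2 and 16.6 FPKM in Si*adat2*.

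Folds differed by more than 4-fold between the kinds for 10 genes. The difference was larger in the independent mRNA-seq for 7 of them (NCU09045, NCU01861, NCU08856, *gh10-1*, NCU05914, *fdh* and NCU03322). For NCU09045, NCU05914 and NCU03322 an independent Si*adat2* library is listed at 0. With the other library alone the fold was 6.02 for NCU03322 and 37.1 for NCU05914, beside 2.96 and 9.41 in the accompanying mRNA-seq, so that neither was apart by more than 4-fold. It was larger in the accompanying mRNA-seq for NCU00175, NCU04268 and NCU09416. NCU08856 had 124 and 119 FPKM in WT and 5.26 and 4.32 FPKM in Si*adat2* without CHX, and 7.02 and 9.32 FPKM in WT and 3.45 and 1.94 FPKM in Si*adat2* with CHX. Over all 207 genes, 111 (53.6%) were lower by more in the independent and 96 by more in the accompanying mRNA-seq, beside 67.9% of all genes with the minimum WT level in the first direction. Scaling by the median gene turned the majority, to 70 and 137 genes. CHX, library kit and read counting differ together between the kinds and cannot be told apart.

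Some of the genes lie next to each other. By the order of protein-coding genes on assembly NC12, 27 of the 207 genes form 12 groups of neighbours, and 13.04% of the 207 have a direct neighbour that is also on the list. Of the other 5411 genes with the minimum WT level, 3.36% have such a neighbour. Among the 156 genes higher in both kinds, 6.41% have a neighbour that is higher as well. The neighbours within a group do not overlap each other, but some lie close, as NCU04522, which ends at 3099624, and NCU04521, which starts at 3099629. The accompanying counts take in 100 bases on each side of a coding sequence, so reads of close neighbours may not be told apart. The longest group holds 4 genes on chromosome IV, NCU05163, NCU05162, NCU05161 and NCU05160 (from 5905743 to 5913850), the last annotated as an ATP-dependent Zn protease. Their log2 ratios ranged from -2.06 to -1.08 in the independent mRNA-seq and from -2.10 to -1.18 in the accompanying mRNA-seq. NCU05163 had 44.3 and 44.1 FPKM in WT and 13.3 and 16.2 FPKM in Si*adat2* in the independent mRNA-seq. NCU05160 had 167 and 162 FPKM in WT and 50.7 and 43.8 FPKM in Si*adat2* there. On the same chromosome, NCU10040, NCU10039 and NCU10038 follow each other (from 5939000 to 5945207). NCU10040 had 476 and 512 FPKM in WT and 369 FPKM and a listed 0 in Si*adat2* in the independent mRNA-seq. Without the library listed at 0 its log2 ratio was -0.42, so its place in the group rests on that library. In the same group, NCU10039 had 19.3 and 17.4 FPKM in WT and 2.78 and 3.31 FPKM in Si*adat2*, and NCU10038 had 18.8 and 18.3 FPKM in WT and 3.93 and 3.78 FPKM in Si*adat2* in the independent mRNA-seq.

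NCU06912, the gene with the largest folds among these neighbours, lies beside NCU06911 on chromosome VII (from 744988 to 749114). NCU06911 had 44.1 and 44.1 FPKM in WT and 5.59 and 5.95 FPKM in Si*adat2* in the independent mRNA-seq, and 108 and 99.5 FPKM in WT and 5.68 and 4.10 FPKM in Si*adat2* in the accompanying mRNA-seq. NCU09169 and NCU09170 on chromosome III were 3.46-fold and 11.8-fold lower in the independent mRNA-seq. The salicylate hydroxylase gene NCU07737 lies beside NCU07736 on chromosome V, and *pgk* beside NCU07915 on chromosome IV. NCU07915 had 59.3 and 52.6 FPKM in WT and 19.4 and 15.3 FPKM in Si*adat2* in the independent mRNA-seq, and was 2.08-fold lower in the accompanying mRNA-seq. The remaining pairs were NCU07454 and NCU07453 on chromosome I, NCU04522 and NCU04521 on chromosome IV, NCU09532 and NCU09533 on chromosome V, NCU05653 and NCU05652 as well as NCU05909 and NCU05908 on chromosome VI, and NCU05881 and NCU05882 on chromosome VII. Within each of the 12 groups all log2 ratios were below -1 in both kinds, by selection, but the sizes differed within a group. The accompanying ratio of NCU07915 rose above 0.5 with WT replicate 2 or Si*adat2* replicate 1 left out. That of NCU07454 did so without Si*adat2* replicate 1, and that of NCU05908 without WT replicate 1. The place of these genes in a group, and the share with a neighbour on the list, depend on the libraries used.

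**Figure D4:**
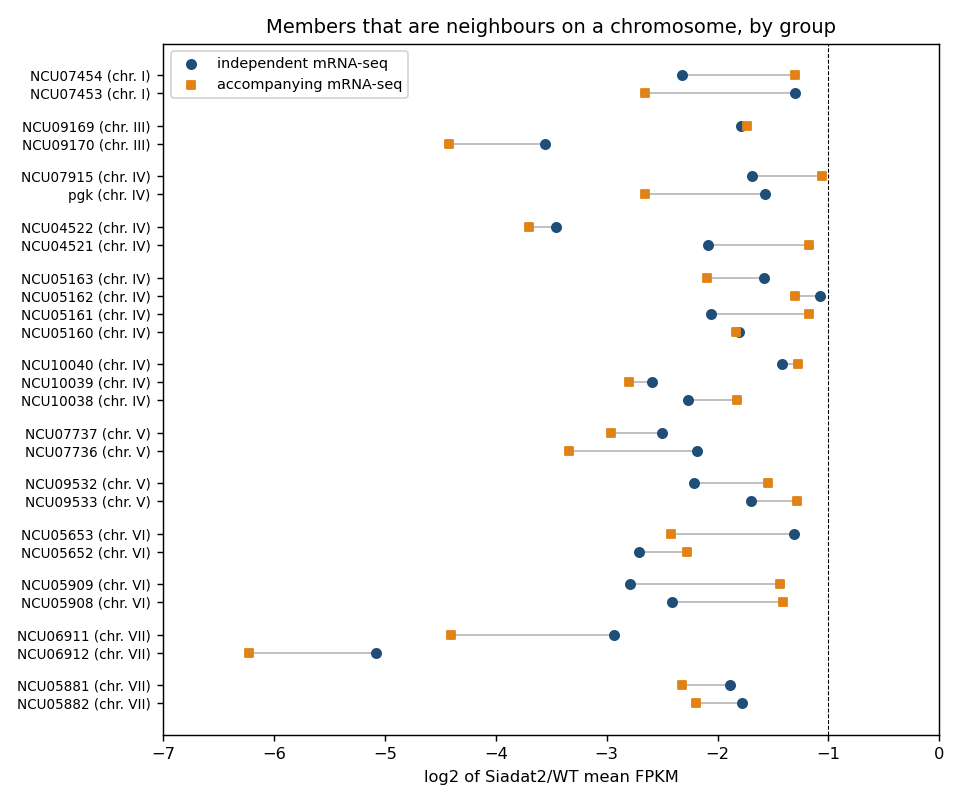
The log2 ratio of mean FPKM Si*adat2*/WT of the 27 genes that lie next to each other, in 12 groups ordered by chromosome, with a circle for the independent and a square for the accompanying mRNA-seq; the dashed line is the ratio of 0.5 that the genes had to pass. NCU06912 reaches the lowest values of the 27 genes, at -5.08 and -6.23.

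By chromosome, the 207 genes are from 2.08% of the genes with the minimum WT level on chromosome I to 6.68% on chromosome VI, with 5.56% on chromosome IV and 5.31% on chromosome VII. Another gene of the table overlaps 41 of the 207 (19.8%, beside 27.8% of the 5618 genes), *xr*, *gh10-2*, *adh-1*, *pgk*, NCU00891 and NCU09041 among them, and whether strand was used in counting is not given in the sources used here, so reads of such a pair may not be told apart. More than 1 annotated transcript is given for 16 of the 207 genes (7.73%, beside 13.2%). The median coding length was 1233 bases in the 207 genes and 1383 bases in the 5618.

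The genes were more abundant in WT than most. Their median WT mean was 54.8 FPKM in the independent and 73.1 FPKM in the accompanying mRNA-seq, beside 28.5 and 30.6 FPKM over the 5618 genes. When the 5618 genes were ranked by their WT mean in the independent mRNA-seq and split into 5 bins of nearly equal size, the 207 genes were 2.31% of the lowest bin and 6.76% of the highest. The WT mean is the denominator of the ratio that chose the genes, so this is a description only. The codon bias index (CBI), a score of how far a gene keeps to the preferred codons, had a median of 0.297 in the 207 genes, beside 0.246 in the 5618 genes and 0.226 in the 156 genes higher in both kinds. It ranged from -0.04 to 0.821, the latter in *fdh*, and *xr* (0.774) and *pgk* (0.764) were near the top. The 207 genes were 1.96% of the bin with the lowest CBI and 4.63% of the bin with the highest. The genes lower in the accompanying mRNA-seq alone had a higher median (0.326, 445 genes) and those lower in the independent mRNA-seq alone one of 0.255 (490 genes). Abundance and CBI were not separated here, and no test was made over genes, which are not replicates.

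**Figure D5:**
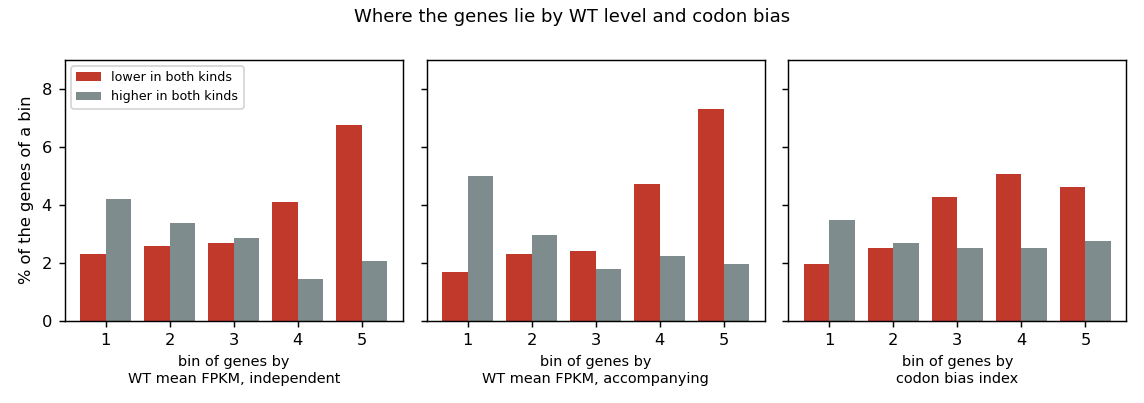
Share of genes in each of 5 bins of the 5618 genes, ranked by WT mean FPKM in the independent (left) and accompanying (middle) mRNA-seq and by CBI (right), that were lower (red) or higher (grey) in both kinds. The share of lower genes is 6.76% and 7.30% in the top bins by WT level and 5.08% in the next to top bin by CBI.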

How the data were processed

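The files of the accompanying mRNA-seq, as deposited, hold a count of uniquely mapped reads for each coding sequence (with 100 bases on each side), an FPKM value and, as a score, CBI. The independent mRNA-seq is in Cufflinks tables with FPKM of each transcript, deposited by the authors on assembly NC12 (TopHat2 and Cufflinks are named in the submitters' processing notes). Codon occupancies of the ribosome profiling hold no value per gene and were not used.

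FPKM were used as deposited. Annotated transcripts of a gene were summed in the independent mRNA-seq, a gene lacking a transcript in any table was dropped, and genes not listed in an accompanying table were given 0. The ratio past 2-fold is the criterion of the study. The selection was tested on simulated data. The members and lists were chosen with earlier results of these data known. Named genes are *adat2*, the 10 members with the highest WT level and the 10 with the smallest ratios, members with a symbol, up to 4 members of each of 21 lists, the 3 genes on each side of the limit, and neighbours. NCU00175, NCU00891, NCU01704, NCU01906, NCU02343, NCU03322, NCU04078, NCU04268, NCU05119, NCU05188, NCU05290, NCU05953, NCU06123, NCU07064, NCU08549, NCU08856 and NCU11370 do not follow from this rule and were picked with their values known, as were the groups by role. Symbols and positions are from the RefSeq table of NC12, which matched all 207 genes with the same start as in the files. Products are from the annotation column of the study's protein mass spectrometry results, without its values, so only genes listed there have one. The terms of NCU02343, NCU09045, NCU07569 and NCU09175 are Gene Ontology and InterPro terms of the study's supplementary lists.

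Alternatives used edgeR 4.0.16 (TMM) and DESeq2 1.42.0 (size factors) in R 4.3.3 on the counts, and Python 3.11.15 with pandas 2.3.3 for the rest.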

Additional observations from a re-analysis of the deposited data

How the results depend on the processing

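The number of genes stayed within 1.5 times 207 under every alternative except a ratio below 0.4 (125 genes) and below 0.6 (343 genes). It was 228, 177 and 233 with a minimum WT mean of 1 FPKM, of 10 FPKM and with none, 212 with overlap allowed, 201 with transcript T0 alone, and 221 and 207 with pseudocounts of 0.1 and 1. Of the last 207, 192 were the same genes. Scaling by the median gene in both kinds gave 264 genes (197 of the 207 among them), and TMM and DESeq2 size factors in the accompanying mRNA-seq gave 270 and 272 (all 207 among them). With each library left out in turn the number ranged from 192 to 226. Taking the ratio within each replicate number (the replicate block) left 157 genes. The numbers are only shared labels in the independent mRNA-seq, an accompanying library whose label has no number was called replicate 1, and the differences between replicates of the 2 strains correlated at -0.0588 over 5447 genes there and at 0.143 over 5611 genes in the accompanying mRNA-seq.

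With the 207 genes fixed, the median log2 ratio in the independent mRNA-seq was -1.79 after scaling by the median gene, -1.78 with a pseudocount of 1, -1.80 without the 13 genes with a listed 0 (chosen after seeing the data), -1.81 with the replicate block, and from -1.85 to -1.81 with each library left out. In the accompanying mRNA-seq it was -2.14 by the median gene, -2.09 with TMM, -2.11 with DESeq2 size factors, -1.78 with the replicate block, and from -1.84 to -1.64 with each library left out. Of 841 alternatives for 154 values of 77 named genes, 20 had a ratio of 0.5 or more, 17 of them with a library left out. None changed direction. With a library left out none could, because the rule put both Si*adat2* libraries below both WT libraries. NCU10040 without Si*adat2* replicate 2 of the independent mRNA-seq had a log2 ratio of -0.42. The counts of genes lower by more in one kind under scaling by the median gene, given beside those results, and the folds without a library listed at 0 were also added after seeing the data. The median CBI was 0.303 for the 168 genes with at least 10 reads in every accompanying library. The depth of the independent mRNA-seq is unknown, so no counting interval was given for it.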
